A study of Mus musculus with 15 samples.

Results

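The stretch described here lies on mouse chromosome 6 at chr6:112500001-114400000 (build mm9), on the low-coordinate side of a 4C-seq bait at Pparg. It was chosen by position: all HindIII sites from 112.5 to 114.4 Mb. These are 532 of the 823355 HindIII sites in each library and of the 47607 on chromosome 6. They lie 0.97 to 2.87 Mb from the bait site, which starts at 115369246 bp, and 522 of them lie over 1 Mb from it. The stretch holds Cidec, near 113.37 Mb. Its limits were set with read levels of the Pparg bait in both cell lines known, so the levels in 3T3-L1 cells and the differences between B cells and 3T3-L1 cells are descriptions without a test.

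4C-seq counts how often genomic sites were ligated to a bait after fixation, a measure of their nearness to it inside the nucleus. The study read baits at Pparg, Lpin1 and Ifng in 15 samples, deposited as 27 libraries. The cells were 3T3-L1, a clonal mouse fibroblast line that turns into adipocytes. They were read as preadipocytes (day 0), at days 1 and 2, and as mature adipocytes (day 6), with 2 libraries per bait and day. Day 0 cells were post-confluent; dexamethasone, 3-isobutyl-1-methylxanthine and insulin in fetal calf serum were then given, and insulin and serum again at day 2. The other cells were a B lymphocyte cell line, with 1 library per bait. In both lines, fixation was for 10 min in 2% formaldehyde, and DNA was digested by HindIII and, after ligation, by DpnII. The libraries hold contacts and no expression, so the labelled cell types could not be checked against marker genes.

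Pparg encodes a nuclear receptor on which adipocyte formation depends. It acts by binding DNA with a retinoid X receptor and switching on genes of lipid storage. Cidec encodes a lipid droplet protein that promotes droplet fusion in fat cells, and is a known target of that receptor. Genes on active chromatin tend to lie near other active genes of their chromosome, and silent genes near silent ones.

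In the gene order of RefSeq (GRCm38.p6, another build, from which no coordinates are taken), 23 protein-coding genes lie between Cidec and Pparg. From Cidec towards Pparg these include Il17re and Il17rc (interleukin-17 receptors), Fancd2 (DNA crosslink repair) and Vhl (the substrate receptor of a ubiquitin ligase). After them come Ghrl (ghrelin), Atp2b2 (a plasma membrane calcium pump), Hrh1 (a histamine receptor) and Atg7 (autophagy). Away from Pparg follow Camk1 (a calcium-dependent kinase), Ogg1 (base excision repair), Setd5, Srgap3, Rad18 (DNA damage tolerance), Oxtr (the oxytocin receptor) and Cav3 (a caveolin of muscle). Which window holds which of these genes could not be read without an annotation of mm9.

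A 4C contact is read only at a HindIII site, AAGCTT, so the promoter of Cidec is shown with that site in capitals. The sequence covers the 250 bases before the start of 1 of its 2 RefSeq transcript starts, on the minus strand of GRCm38.p6, and its HindIII site begins 176 bases before that start.
Cidec promoter: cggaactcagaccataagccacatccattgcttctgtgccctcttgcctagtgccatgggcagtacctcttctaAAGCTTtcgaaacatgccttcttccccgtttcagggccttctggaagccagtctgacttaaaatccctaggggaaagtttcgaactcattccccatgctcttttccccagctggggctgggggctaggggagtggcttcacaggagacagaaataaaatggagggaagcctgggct

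Of 54 promoter windows of 300 bases at Cidec and its 20 neighbours on each side, 4 held AAGCTT (7.407%), against 7.455% of the 32851 windows of all genes. The others belong to Ghrl (2 overlapping windows that hold the same site) and Hrh1, and none of the 3 Pparg windows held it. The DR1 motif of the receptor (AGGTCA repeated after 1 base, either strand) was in none of the 54 windows and in 0.03957% of all windows. The C/EBP motif TTGCNNAA, for a family of factors that act with Pparg in adipogenesis, was in 8 of the 54 (14.81%) against 10.8% of all. It was in 1 of the 2 Cidec windows and 1 of the 3 Pparg windows. These are matches of letters, not measured binding.

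The 9 Pparg libraries held 116031 to 2551475 reads, of which 10752 to 470696 lay on chromosome 6 over 1 Mb from the bait. These are called far reads. Depth differed with both the replicate number and the day: each library numbered 1 was deeper than its partner, and the bait site alone took 51.98% and 61.41% of the reads on day 6 but 5.829% to 29.22% on the earlier days. The HindIII sites were not dense in the stretch, at 28 per 100 kb against 32.49 over chromosome 6. The stretch of the same length and distance on the other side of the bait, called the mirror stretch, held 530 sites.

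The stretch took 9.022% and 9.077% of far reads on day 0, 8.29% and 8.335% on day 1, 7.421% and 9.971% on day 2, and 8.26% and 8.138% on day 6. The mean of the 8 libraries was 8.564% ± 0.7707 (SD, n = 8). Pairs of one day lay close together except on day 2, where they lay on either side of all other libraries. The B cell library stood above all of them, at 15.3% (95% Wilson interval 14.98% to 15.63%, counting error only). The mirror stretch took 9.761% ± 1.159 of far reads in 3T3-L1 libraries (SD, n = 8), and the B cell library had 9.527%. Per HindIII site, the 3T3-L1 libraries had 0.9254 ± 0.1199 times as many reads in the stretch as in the mirror stretch (SD, n = 8), and the B cell library 1.675 times.

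The excess in B cells was not even along the stretch: it lay on both flanks, and the part that holds Cidec had fewer reads in B cells. By its profile the stretch was divided, after the values were seen, into an outer block (112.5 to 113.0 Mb, 130 sites), a middle block with Cidec (113.0 to 113.7 Mb, 204 sites) and a near block (113.7 to 114.4 Mb, 198 sites). The near block took 11.86% of far reads in B cells against 4.178% ± 0.7416 (SD, n = 8) in 3T3-L1 cells, whose highest library had 5.464%. The middle block took 1.634% in B cells against 3.492% ± 0.6804, and the lowest 3T3-L1 library, day 6 replicate 2, had 2.148%. The outer block took 1.812% in B cells against 0.8942% ± 0.2072, with a highest 3T3-L1 value of 1.302%. The B cell library thus lay outside the 3T3-L1 range in all 3 blocks. The mirror blocks at the same distances had the same order in 2 of the 3. The mirror of the near block took 4.599% in B cells against 3.165% ± 0.4601 (SD, n = 8, highest 3.968%), and that of the middle block 3.075% against 4.722% ± 0.6928 (lowest 3.311%). The mirror of the outer block took 1.853% in B cells, within the 3T3-L1 range of 1.568% to 2.205%. Fewer reads in B cells at the distance of Cidec were therefore seen on both sides of the bait, and no test was made of whether the sides differed.

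**Figure D1:**
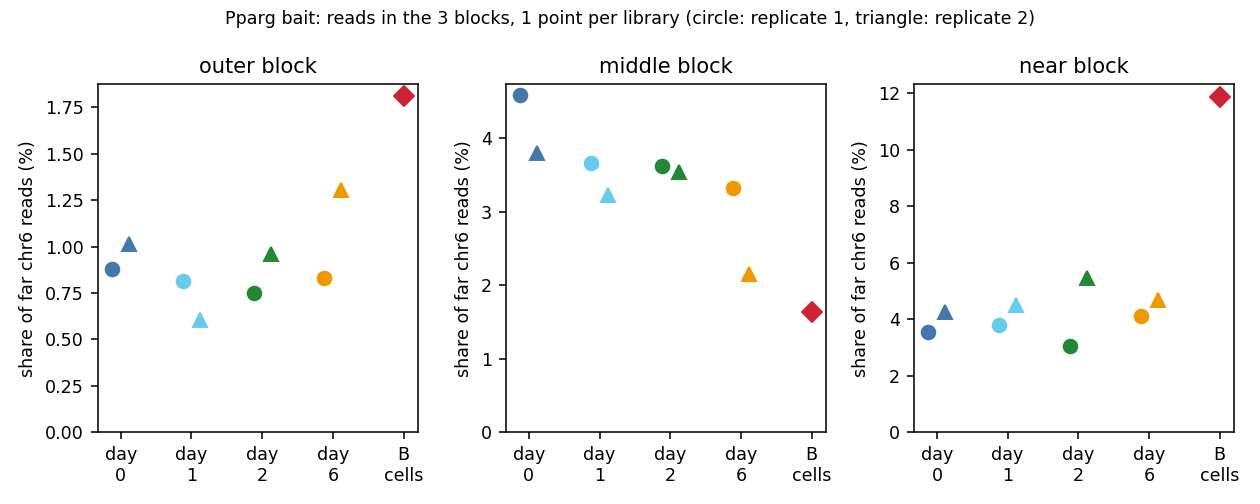
Share of far reads of the Pparg bait (%, each axis from 0) in the outer, middle and near block; each point is 1 library, circles are replicate 1, triangles replicate 2 and the diamond is the B cell library. The B cell point is the highest in the outer and near blocks (1.812% and 11.86%) and the lowest in the middle block (1.634%).

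Within each library, the ratio of reads per site in the middle block to those in the near block needs no scaling between libraries. It was 1.188 and 0.8198 on day 0, 0.8883 and 0.6613 on day 1, 1.099 and 0.598 on day 2, 0.7488 and 0.4224 on day 6, and 0.127 in B cells. In preadipocytes the middle block, although farther from the bait, was on average read as densely as the near block (mean ratio 1.004), and in B cells far less densely. The ratio also moved with the replicate number, with a mean of 0.9811 ± 0.1995 (SD, n = 4) in the libraries numbered 1 and 0.6254 ± 0.1643 (SD, n = 4) in those numbered 2. Its lower level on day 6 was present within each number. The part of depth in this was not tested.

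Window by window, the boundary of the middle and near blocks was sharp in B cells. From the 100 kb window at 113.6 Mb to that at 113.7 Mb the reads went from 0.3669% to 1.359% of far reads in B cells, and from 0.7091% ± 0.176 to 0.5066% ± 0.1548 (SD, n = 8) in 3T3-L1 cells. B cells lay above all 8 3T3-L1 libraries in 10 of the 19 windows (all 7 of the near block and 3 of the 5 of the outer block), where 19.4% of chromosome 6 windows over 1 Mb from the bait did so. They lay below all 8 in 5 windows, each in the middle block of 7, against 9.07% of windows. Since these contrasts were known when the stretch was chosen, nothing is read from the difference to the background. Ordered by mean 3T3-L1 share, the 19 windows had a Spearman correlation of 0.13 with their share in B cells, and day 0 and day 6 one of 0.79. These are descriptions across windows that share libraries and distance from the bait.

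**Figure D2:**
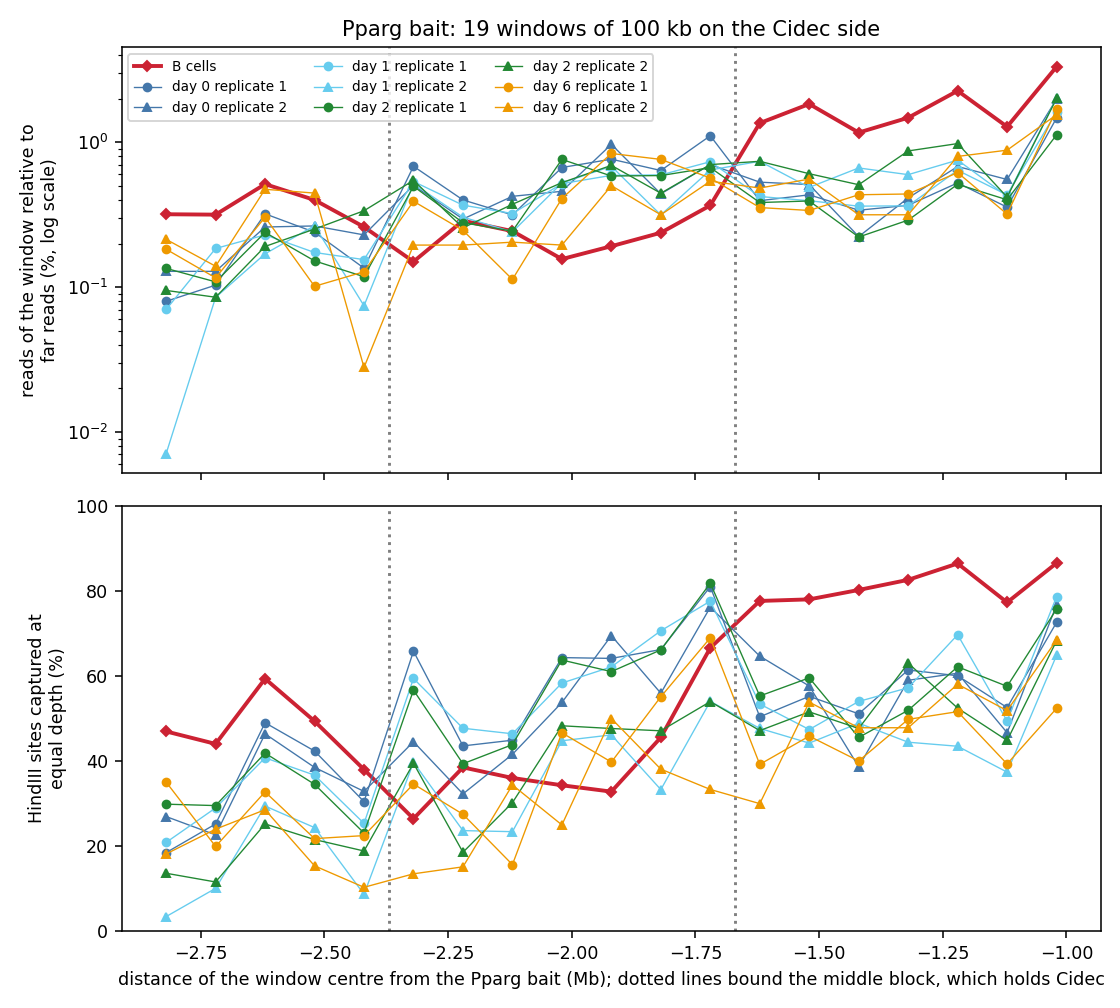
Reads of each 100 kb window relative to far reads (%, log axis, top) and HindIII sites with at least 1 read at equal depth (%, bottom) against distance from the Pparg bait (Mb, negative towards lower coordinates), 1 line per library. The B cell line lies above every 3T3-L1 line in the 7 windows nearest the bait and, in the top panel, below every one in 5 of the 7 windows between the dotted lines.

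The 3 windows with the highest captured share in 3T3-L1 cells, after the 9 libraries were thinned to 10752 far reads each, were those at 114.3 Mb (69.69% ± 8.454 of its 38 sites), 113.6 Mb (65.85% ± 17.22 of 21) and 114.1 Mb (57.26% ± 7.955 of 31; SD, n = 8). In B cells they stood at 86.52%, 66.6% and 86.42%. The lowest 3 all lay in the outer block, at 112.5 Mb (20.82% ± 9.911), 112.6 Mb (21.5% ± 7.297) and 112.9 Mb (21.52% ± 8.646; SD, n = 8), with 46.96%, 44.03% and 38.01% in B cells. A site is captured if it has at least 1 read. By block, the captured share was 47.55% in B cells against 26.25% ± 7.461 in the outer block, 38.08% against 46.45% ± 11.86 in the middle block, and 81.58% against 54.71% ± 5.531 in the near block (SD, n = 8). In the middle block the B cell value lay within the 3T3-L1 range of 28.92% to 60.06%. There the reads of B cells lay below the 3T3-L1 range, while the share of sites touched lay inside it.

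At the limits of the stretch, the window just inside its low end (112.5 Mb) had a mean of 0.114% of far reads in 3T3-L1 libraries and 0.3189% in the B cell library, and the one just outside 0.07173% and 0.4023%. At the end towards the bait, the window just outside and part of that at 114.3 Mb lie within 1 Mb of the bait. Their reads are therefore given relative to far reads, not as a share of them. The window at 114.3 Mb had 1.688% and 3.331%, and the one just outside 0.5975% and 1.138%. Their captured shares in 3T3-L1 cells were 69.69% and 26.16%. Reads thus dropped from the window at 114.3 Mb to the one outside in both cell lines. The other near windows had 0.3844% to 0.6895% in 3T3-L1 cells, a range that holds the value outside, and 1.169% to 2.27% in B cells, above it.

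In the edgeR fit over 1376 windows of chromosome 6, the B cell library differed from the 3T3-L1 mean by a median of 1.58 (log2, range 0.94 to 1.96) over the 7 near windows, by -1.16 (-1.91 to -0.05) over the 7 middle windows and by 0.94 (0.77 to 1.66) over the 5 outer windows, with a median of 0.06 over all windows. Of all windows, 0.872% were called in either direction at an adjusted p of 0.05 and 0.218% as higher in B cells. The stretch holds 3 of the latter, given as a description since this contrast was known when the stretch was chosen and the B cell line has 1 library. They start at 113.8 Mb (log2 1.96 ± 0.44, SE), 114.0 Mb (1.66 ± 0.46) and 114.1 Mb (1.69 ± 0.40). The window at 114.0 Mb lost its call in 5 of the 8 fits that left out 1 library. Leaving out day 6 replicate 1 gave 6 called windows, and leaving out day 6 replicate 2 gave 5. It was 10 with DESeq2, 5 with a replicate block, and 0 with captured sites, with sites capped at 50 reads or with windows of 0.05 Mb.

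At 113.8 Mb the reads were 1.841% of far reads in B cells. The 3T3-L1 libraries had 0.4343% and 0.5113% on day 0, 0.3953% and 0.4888% on day 1, 0.3938% and 0.6074% on day 2, and 0.3387% and 0.558% on day 6. No 3T3-L1 library came near the B cell value, and the days overlapped each other. The window at 114.1 Mb had 2.27% in B cells and 0.5134% to 0.9811% in the 8 3T3-L1 libraries.

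The window of Cidec, from 113.3 to 113.4 Mb, holds 28 sites. It took 0.6705% and 0.4593% of far reads on day 0, 0.5186% and 0.5242% on day 1, 0.7626% and 0.5271% on day 2, 0.4096% and 0.1953% on day 6, and 0.1563% in B cells. The 2 lowest 3T3-L1 libraries were those of day 6, and B cells lay below all 8. At equal depth 50.61% ± 12.77 of its sites were captured in 3T3-L1 libraries (SD, n = 8), and 34.31% in the B cell library. Within 20 kb of the position given for Cidec lay 11 HindIII sites, at which the B cell library had 0 to 4 reads each. The site closest to that position starts at 113368643 bp and had 4 reads in B cells. It had 244 and 31 on day 0, 195 and 4 on day 1, 128 and 1 on day 2, and 47 and 0 on day 6. Single sites varied widely between libraries of one day, so the window is the smallest unit read here.

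The days were compared to ask whether the stretch changed during adipogenesis. Values by day were among the earlier results known when the stretch was chosen, so these p-values describe these libraries and are not independent evidence. The read share did not pass: an exact permutation test over the 4 days gave p = 0.819 (0.819 after Benjamini-Hochberg adjustment over 5 tests), where 0.009524 is the smallest p possible. Day 6 minus day 0 was -0.8499 percentage points, lower in both libraries, but 2 against 2 libraries allow no exact p below 0.3333. The 4-day test turned on the day 2 pair, which lay on either side of all other libraries: the exact p fell when either was left out. Removing 1 of this pair is not an independent test, since it leaves 1 library on that day and takes out the widest spread. With reads from 1 to 5 Mb as the denominator, the exact p was 0.01905, or 0.09525 adjusted, and the difference -0.5698. With sites capped at 50 reads the difference was 0.2728, opposite in sign, with an exact p of 0.981.

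The captured share at equal depth was 53.04% and 50.18% on day 0, 52.41% and 36.0% on day 1, 51.85% and 39.8% on day 2, and 38.28% and 35.15% on day 6, against 56.59% in B cells. Both day 6 libraries lay below both of day 0, by a mean of -14.9 percentage points, and the exact test over the 4 days gave p = 0.3619 (adjusted 0.4524). Permuted within replicate numbers, the exact p was 0.08333 before adjustment. The mirror stretch also had lower values, with 51.91% ± 5.841 on day 0 and 38.3% ± 1.328 on day 6 (SD, n = 2). Reads per site over those of the mirror stretch did not pass either (exact p = 0.2095, adjusted 0.4445). Day 6 minus day 0 of that ratio was -0.10 on the log2 scale, and 0.01541 without day 0 replicate 2.

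Over windows, edgeR called none of the 19 on day 1 (0% of the 1376 windows tested were called), day 2 (0.0727%) or day 6 (0.291%) against day 0. None of the 19 had an unadjusted p under 0.05 either, while 52, 69 and 110 of all windows did. DESeq2 called 0 of the 19 on each day as well. The median standard error of the 19 windows was 0.53 (log2), so small changes could not pass. In simulated data of day 6 against day 0, over 1333 windows, 4.12% of those with a 4-fold change were called. Of those with a 16-fold change, 35.4% were called. These shares are not for the stretch alone, and how often such a change would be called within it was not tested.

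On day 6 the middle block was the lowest of the 3. Its 7 windows had a median of -0.73 (log2), 6 of them below 0, while the near block had -0.01, the outer block 0.12 and all windows 0. By CPM (reads scaled to the total over the fitted windows, adjusted by TMM), the day 6 pair lay wholly below the day 0 pair in 4 of the 19 windows. Over all windows 21.5% did so, so the count is near that share. Each of the 4 lay in the middle block. The day 6 pair lay above the day 0 pair in 3 of the 19, where 13.8% of all windows did. By share of far reads, the windows at 112.9 Mb (outer block) and 113.3 Mb (holding Cidec) also had the day 6 pair wholly below. The share of all windows that did so by this measure is not given here, so nothing is read from it. By CPM the pairs overlapped in both windows. At 113.3 Mb day 6 replicate 1 had 1606 CPM and day 0 replicate 2 had 1558. The smallest p for a lower value belonged to the window at 113.2 Mb, with a log2 difference of -1.30 ± 0.68 (SE) and an edgeR adjusted p of 0.6398, which does not pass. The window of Cidec had 1998 ± 621.5 CPM (SD, n = 2) on day 0 and 1100 ± 715.5 on day 6. Its log2 difference was -0.83 ± 0.54 (SE), edgeR adjusted p 0.6761, and 0.26 when captured sites were counted. Leaving out day 6 replicate 1 gave -1.75, leaving out day 6 replicate 2 gave -0.42, and leaving out day 0 replicate 1 gave -0.48. The window at 112.5 Mb had the smallest p for a higher value on day 6 (0.92 ± 0.91, SE) and for a lower one on day 1 (-1.39 ± 0.92), the latter resting on 2 reads in day 1 replicate 2. Leaving out that library gave -0.62 on day 1, and leaving out day 1 replicate 1 gave -3.99. On day 1 the window at 113.9 Mb was the leading higher one (0.79 ± 0.53), with 0.26 without day 1 replicate 2, 0.44 without day 0 replicate 2 and 1.19 without day 0 replicate 1. On day 2 these were the window at 114.0 Mb (0.52 ± 0.50), which had -0.62 if day 2 replicate 2 was left out and 1.15 if day 2 replicate 1 was, and the window at 113.4 Mb (-0.53 ± 0.47). The latter was 0.21 with captured sites and -0.32 without day 2 replicate 1. None of the windows named here passed, with edgeR adjusted p from 0.6398 to 0.9872.

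**Figure D3:**
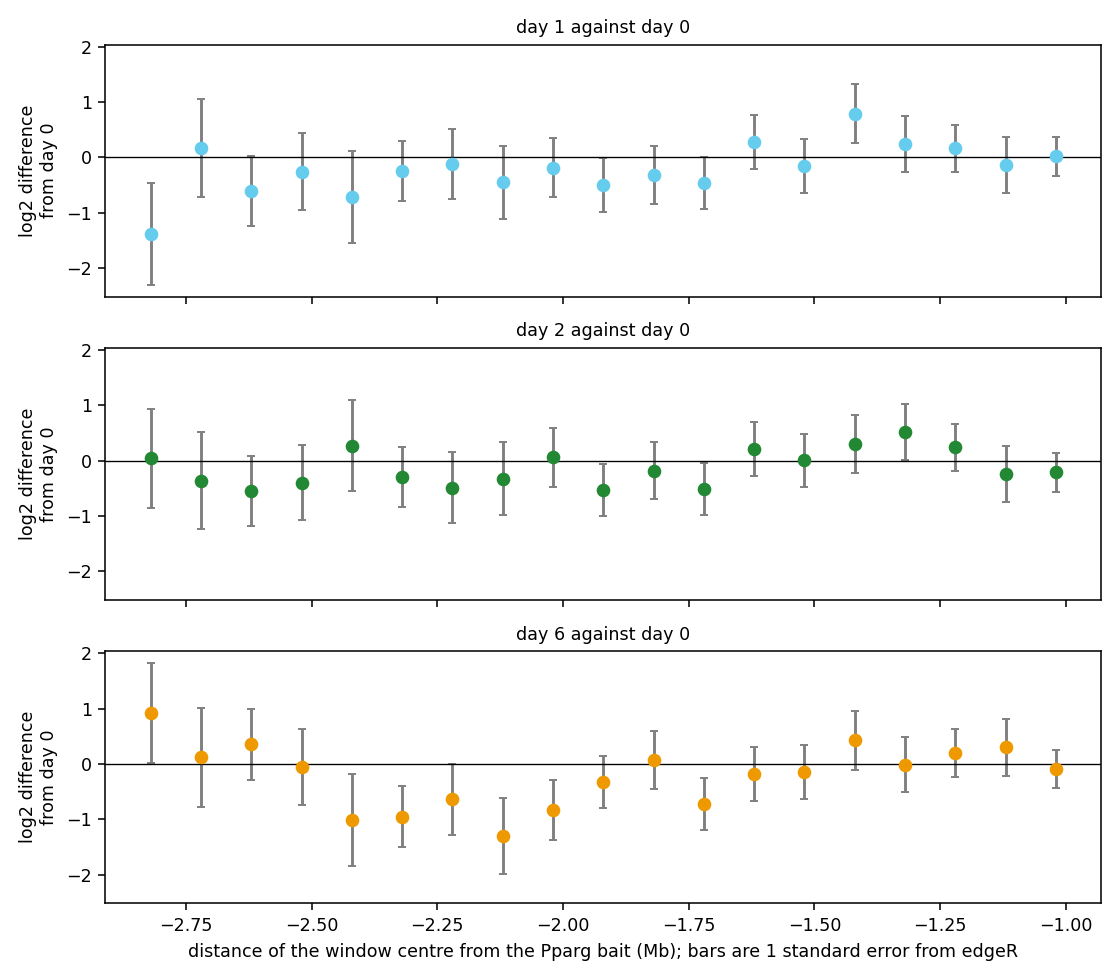
edgeR log2 differences from day 0 of reads per 100 kb window on days 1, 2 and 6, against distance from the Pparg bait (Mb); bars are 1 standard error. No window passed on any day; on day 6 the lowest point, -1.30, lies in the middle block.

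Reads of the stretch were spread over many sites. Of the 532 sites, 94 had a read in all 8 3T3-L1 libraries, 17 in none of the 8, and 387 in B cells. Of the 94, 87 were also read in B cells, and 2 sites were read in B cells alone. The 15 sites that no Pparg library read were read in none of the 27 libraries. The 5 leading sites of a library held 8.69% to 17.75% of the stretch's reads in 3T3-L1 libraries, and 8.272% in the B cell library. The list of 5 by mean share in 3T3-L1 cells and the list of 5 in B cells shared 1 site. That site starts at 114370246 bp, at the end towards the bait, with 2.211% ± 2.739 of the stretch's reads (SD, n = 8, range 0% to 8.364%) and 2.126% in B cells. The only leading 3T3-L1 site in the middle block starts at 113604954 bp, with 1.186% ± 0.682 (SD, n = 8) and 0.219% in B cells. Sites that led in B cells lay in the near block, such as that at 113856529 bp with 1.675%, against 0.3867% ± 0.3014 (SD, n = 8).

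Lpin1, whose product turns phosphatidate into diacylglycerol for fat synthesis, and Ifng, the gene of the lymphocyte cytokine interferon gamma, lie on other chromosomes. Their baits serve as a reference for the stretch. It was chosen with earlier results of these data known, so their p-values describe these libraries and are not independent evidence. Both baits read the stretch sparsely. The Lpin1 bait captured 5 to 44 of its 532 sites in 3T3-L1 libraries and 28 in the B cell library, the Ifng bait 20 to 61 and 17. As a multiple of the captured share of all chromosomes other than the bait's, the stretch stood at 2.131 ± 0.6229 (SD, n = 8) for Lpin1 and 1.445 ± 0.2283 for Ifng, above 1 in 8 of 8 libraries for each. The stretch was above the rest of chromosome 6 in 6 of 8 libraries for Lpin1 and in 0 of 8 for Ifng. Its difference from the mirror stretch did not pass. The mean log2 ratio was 0.05849 for Lpin1 (above 0 in 4 of 8 libraries, exact sign-flip p = 0.8438) and 0.0392 for Ifng (5 of 8, exact p = 0.7422), both adjusted to 0.8438. The signs turned when single libraries were left out, to -0.09488 for Lpin1 without day 6 replicate 1 and -0.04687 for Ifng without day 0 replicate 2.

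The 2 baits touched opposite blocks. Lpin1 captured a larger share of the middle block than of the near block in 8 of 8 3T3-L1 libraries and in B cells, and Ifng did so in 0 of 8 and in B cells had the reverse order. For Lpin1 the middle block stood at 3.017 ± 1.1 times the share of the other chromosomes and the near block at 0.9527 ± 0.5279 times (SD, n = 8). For Ifng the middle block stood at 0.5572 ± 0.2504 times and the near block at 2.603 ± 0.7369 times. The multiple of the middle block was above 1 in 8 of 8 libraries for Lpin1 and in 0 of 8 for Ifng. In B cells it was 2.087 for Lpin1 and 0.716 for Ifng, and that of the near block was 1.075 and 2.705. The middle and near blocks thus stood in opposite order for the Lpin1 and Ifng baits, in both cell lines. The block limits came from Pparg reads, and no test was made of this pattern. The counts per block are small. In 3T3-L1 libraries Lpin1 captured 3 to 28 sites of the middle block and 0 to 8 of the near block. Ifng captured 1 to 13 and 13 to 40. In Lpin1 day 6 replicate 2 the order rests on 3 sites against 0.

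**Figure D4:**
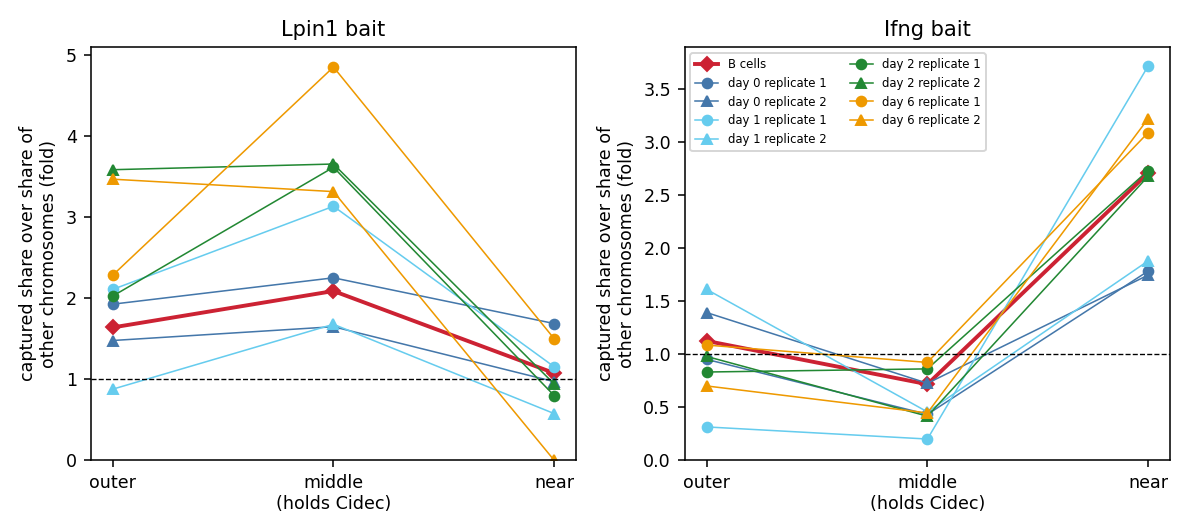
Captured share of each block over the captured share of all chromosomes other than the bait's (fold, axis from 0, dashed line at 1) for the Lpin1 bait (left) and the Ifng bait (right), 1 line per library, B cells with diamonds. Lpin1 lines peak or stay high in the middle block and fall towards the near block, while Ifng lines are lowest or near lowest in the middle block and highest in the near block.

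By day, the multiple of the stretch for Lpin1 was 1.996 and 1.396 on day 0 and 3.062 and 2.324 on day 6, and for Ifng 1.076 and 1.28 on day 0 and 1.808 and 1.565 on day 6. The day 6 libraries lay above those of day 0 for both baits, as did those of day 2 and, for Ifng, of day 1. The exact tests over 4 days did not pass, with p = 0.2667 for Lpin1 and 0.1238 for Ifng (both adjusted 0.4445). The Lpin1 values on day 6 rest on 16 and 5 captured sites of the stretch. Those libraries captured 1.011% and 0.4439% of sites on the other chromosomes, against 2.397% and 2.084% on day 0. In windows of 0.5 Mb tested over the genome, none of the 4 that cover the stretch was called for either bait on any day (0% of windows were called on each). The same held for B cells (0.222% called for Lpin1, 0.435% for Ifng), and DESeq2 called 0 of these windows too. With edgeR, a single window and contrast had an unadjusted p under the threshold. It was the Lpin1 window from 113.0 to 113.5 Mb on day 2, which lies in the middle block and holds Cidec. Its log2 difference was 0.98 ± 0.45 (SE), with an edgeR adjusted p of 0.9249.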

How the data were processed

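For each of 27 libraries the authors deposited raw read counts over 823355 HindIII sites, as whole numbers without scaling. Per the submitters' processing notes, reads were aligned with Bowtie to mm9; read filters and removal of PCR duplicates are not given in the sources used here. Replicates are numbered in the names of the deposited tables. No label ties them to separate cultures, and p-values then cover the spread between libraries, which may be technical. Same-numbered libraries were checked for pairing: their deviations from the day means correlated by 0.03 to 0.08 over 12 pairs, so no pairing was used. Some values still differed with the number, such as the captured share at equal depth, with means of 48.9% (number 1) and 40.28% (number 2). The number as a block is therefore given as an alternative.

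Sites within 10 kb of the bait were left out. Windows of 100 kb of chromosome 6 were fitted by quasi-likelihood with TMM scaling (edgeR 4.0.16, R 4.3.3; 5 groups, adjusted over 1376 windows), and captured sites in windows of 0.5 Mb with a mean of at least 3 for the other baits, with the B cell library assumed to vary like the others. The fit was tested on simulated data. Captured shares were thinned in expectation to equal depth. In log2 ratios of captured shares 0.5 was added to the count. Single values were compared with exact permutation tests, two-sided for 2 groups, in numpy 2.4.6. Wilson intervals are at 95%. Alternatives were DESeq2 1.42.0, other filters, windows, denominators and counts, a replicate block and leaving out libraries.

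Windows named are that of Cidec and the 3 with the highest and the 3 with the lowest captured share. Also named are the leading window per day and direction and those called in B cells. Sites named are among the 5 leading ones, except the site closest to the position given for Cidec. Members, lists and blocks were chosen with earlier results of these data known. The RefSeq tables of GRCm38.p6 gave gene order and promoter sequence only.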

Additional observations from a re-analysis of the deposited data

Results flagged for a closer look

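Of 39 measures over the 8 3T3-L1 libraries checked for a library far from the others, 2 had one, and chance gives about 1 in 20. In the Pparg window at 113.6 Mb, day 0 replicate 1 had 1.111% of far reads, above the other 7 at 0.5394% to 0.7353%. In that at 114.2 Mb, day 6 replicate 2, the shallowest library, had 0.8836%, above the others at 0.3194% to 0.5542%.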

How the results depend on the processing

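The read share by day (-0.8499 percentage points, day 6 minus day 0) was 0.2728 with sites capped at 50 reads and -0.5698 with reads from 1 to 5 Mb (exact p 0.01905, 0.09525 adjusted over 5 tests, which does not pass). Leaving out libraries gave -0.9111 to -0.7888. The exact p fell when either day 2 library was left out, but this pair was seen to be the widest and 1 library then remained on that day, so nothing is read from it. The cause was not tested. The captured share ranged from -16.46 to -13.33, the ratio to the mirror stretch from -0.209 to 0.01541, and that of the other baits against the mirror from -0.09488 to 0.2009 for Lpin1 and from -0.04687 to 0.1529 for Ifng; with at least 2 reads per site Lpin1 gave -0.1208. The windows called in B cells, 3 in the fit reported, were 10 with DESeq2, 5 with the replicate block, 0 with windows of 0.05 Mb, captured sites or a cap of 50 reads, and 2 to 6 without single libraries. The day 6 difference at 113.3 Mb was 0.26 and the day 2 difference at 113.4 Mb 0.21 with captured sites; that at 114.0 Mb on day 2 ranged from -0.62 to 1.15. The B cell excess in read share, 6.737 points, was 12.64 with reads from 1 to 5 Mb, an alternative added after the data were seen. With the replicate block, the exact p by day, before adjustment, was 0.7917 for the read share and 0.08333 for the captured share (0.3619 without the block). Apart from the count of B cell windows, the block moved no result across its threshold. Of the values recomputed under alternatives other than left-out libraries, 96 kept direction and call, 4 were reversed, 9 weaker and 3 stronger by unadjusted p or by count, and 1 moved. Depth limits the window tests, and the B cell line has 1 library.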
